A study of Mus musculus with 12 samples.

Results

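The 46 genes described here encode 42 proteins of the lysosome or its lumen, the transmembrane glycoprotein GPNMB, and the MiT/TFE transcription factors Tfeb, Tfe3 and Mitf. They were selected by gene symbol among the 54532 rows of the deposited expression table, because Gpnmb was among the largest rises after depletion of CCNF. All 46 symbols were found, and all 46 were among the 15122 genes with enough reads to be tested, although Ctsk and Ctss passed the filter on low counts only through the groups that received siCCNF, where they were high. Since the rise of Gpnmb in siCCNF cells chose the genes, the values of siCCNF against siCONTROL are a description with no p-value for these genes, and Gpnmb is left out of the counts of called genes and set beside the other 45.

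The RNA came from C2C12 cells, an immortalized line of mouse myoblasts that can be grown as undifferentiated precursors of muscle. Cells were transfected with siRNA at 30 nM and collected 48 h later, in 4 groups of 3 libraries. The groups are siCONTROL, which received a control siRNA, siKEAP1 and siCCNF, in which Keap1 or Ccnf was targeted, and siKEAP1/siCCNF, in which both were. KEAP1 is the substrate adaptor that directs the transcription factor NRF2 to degradation, and CCNF (cyclin F) is the F-box protein of an SCF ubiquitin ligase. The labels call the libraries biological replicates and do not say whether they were separate cultures or days, so the p-values measure the spread between these libraries, and the serum concentration differs between the labels and the study's methods. Each siRNA lowers a transcript without removing the gene, and no second siRNA, rescue or untransfected group was analysed here.

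Lysosomes are acidic compartments in which proteases, glycosidases, sulfatases and lipid hydrolases break down cargo from endocytosis and autophagy. TFEB, TFE3 and MITF are related basic helix-loop-helix leucine zipper factors that bind E-box sequences in the promoters of many lysosomal genes. When nutrients are plentiful, mTORC1 at the lysosomal surface phosphorylates these factors and holds them in the cytoplasm, so that much of their regulation is on protein location and not on mRNA. GPNMB is a heavily glycosylated membrane protein of melanosomes and lysosomes, known from melanocytes, osteoclasts and lipid-laden macrophages.

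Libraries held between 18464209 and 37743198 counts. The mRNA targeted by each siRNA was lower where the labels place it. Keap1 stood at 87.8 ± 3.05 CPM (read counts scaled to library size with TMM; mean ± SD, n = 3) in siCONTROL, 12.6 ± 0.279 in siKEAP1 and 24.1 ± 2.56 in siKEAP1/siCCNF. Ccnf stood at 81.1 ± 3.99 CPM in siCONTROL, 20.5 ± 0.778 in siCCNF and 24.5 ± 1.01 in siKEAP1/siCCNF, and at 59.4 ± 4.83 in siKEAP1. The remaining Keap1 mRNA was therefore higher in the double depletion than in siKEAP1 alone (log2 fold change 0.93, edgeR adjusted p = 1.07e-06). The 6 myoblast markers Myod1, Myf5, Cdh15, Des, Itga7 and Chrna1 had at least 620 counts in every library, and all 6 were lower in siKEAP1 and in siKEAP1/siCCNF than in siCONTROL. Their summed level was 1517 to 1856 CPM in siCONTROL, 891.6 to 935.0 in siKEAP1, 604.9 to 623.1 in siCCNF and 580.7 to 685.2 in siKEAP1/siCCNF, and the part of this shift in the values below was not tested. In siCONTROL replicate 1 and siKEAP1/siCCNF replicate 3, the genes' deviations from their group means went with gene length (Pearson r across genes -0.31 and -0.28, against -0.09 to 0.21 in the other 10 libraries), and counts of called genes without both libraries stand beside the comparisons below.

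The 46 transcripts together took 0.796% ± 0.030 of all counts in siCONTROL, 1.12% ± 0.033 in siKEAP1, 1.06% ± 0.041 in siCCNF and 1.05% ± 0.048 in siKEAP1/siCCNF (SD, n = 3). The range of siCONTROL (0.776% to 0.830%) did not overlap that of any depletion, the lowest of which was 1.01%. For siCCNF this is a description, since its difference from siCONTROL chose the genes. Abundant transcripts weigh most in such a share. Without Psap, the summed level was 6384.5 to 6810.4 CPM in siCONTROL and at least 7994.1 in every other library. Levels in siCONTROL covered a wide span when set per length as FPKM, the authors' fragments scaled to gene length and library size. Psap, the precursor of the saposins that activate sphingolipid hydrolases, was highest at 509 ± 18.4 FPKM, followed by the small membrane protein gene Laptm4a (391 ± 43.4) and the tetraspanin gene Cd63 (247 ± 50.7). Cd63 and Lamp1 (239 ± 4.52), next in the order, were not separated beyond the spread of Cd63. Lowest were Ctss (0.156 ± 0.056), Ctsk (0.138 ± 0.126) and Gpnmb (0.098 ± 0.067), whose spreads overlapped. In bulk RNA, a lower share of cells with a transcript and less of it per cell cannot be told apart.

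**Figure D1:**
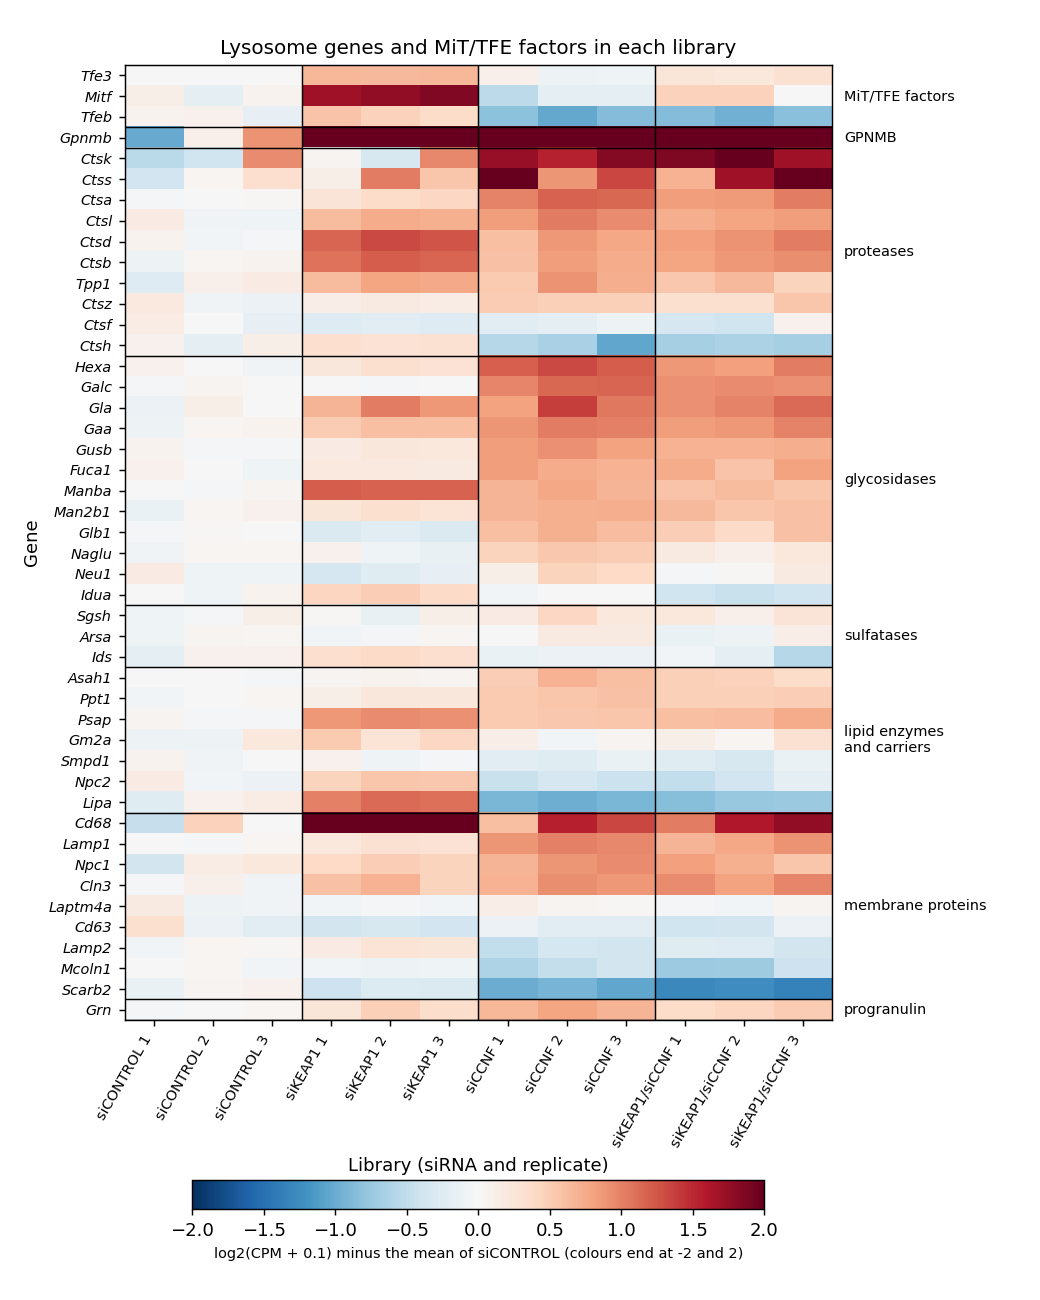
Each row is one of the 46 genes, grouped by role, and each column one library; colour gives log2(CPM + 0.1) minus the mean of the 3 siCONTROL libraries, with colours ending at -2 and 2. Mitf and Cd68 reach their darkest red in siKEAP1 and Hexa and Galc theirs in siCCNF, and Lipa, Tfeb and Scarb2 are blue in both groups that received siCCNF.

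Gpnmb (ENSMUSG00000029816, GRCm38 chr6:49036546-49070929, plus strand) was close to the limit of detection in control cells. Its level was 0.224, 0.597 and 1.11 CPM in the siCONTROL libraries (5, 11 and 23 counts), 2.79, 4.25 and 3.86 in siKEAP1, 10.6, 22.7 and 19.5 in siCCNF, and 13.0, 19.0 and 13.4 in siKEAP1/siCCNF. Every siKEAP1 library lay above every siCONTROL library and below every library that received siCCNF, while siCCNF and siKEAP1/siCCNF overlapped. Only the comparison of siKEAP1/siCCNF with siKEAP1 shares no library with the comparison that chose the gene, and there Gpnmb was 4.16-fold higher (log2 fold change 2.06, SE 0.32, edgeR adjusted p = 1.24e-04). The other differences are descriptions: log2 2.51 for siKEAP1 and 4.78 for siCCNF against siCONTROL, and -0.21 for siKEAP1/siCCNF against siCCNF. Without siCONTROL replicate 3, which held 23 of the control counts, the first 2 were 3.19 and 5.45.

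The promoter of Gpnmb is shown because none of the E-box, CLEAR, M-box or antioxidant response element letters searched below occurs in it. The window is chr6:49036268-49036567 of GRCm38.p6, plus strand, from 250 bases before to 50 bases after the RefSeq start. That start lies upstream of the gene start given above (49036546), so by that annotation fewer than the last 50 bases lie in the gene.
Gpnmb promoter: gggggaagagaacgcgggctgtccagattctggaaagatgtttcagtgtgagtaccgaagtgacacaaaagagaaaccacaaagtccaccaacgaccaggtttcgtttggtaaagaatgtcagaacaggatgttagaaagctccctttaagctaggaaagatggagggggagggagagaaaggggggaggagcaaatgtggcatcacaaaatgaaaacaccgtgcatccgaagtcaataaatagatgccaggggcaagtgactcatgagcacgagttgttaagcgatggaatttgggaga

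The GPNMB gene is a marker of melanocytes, osteoclasts and macrophages, so the defining genes of those cells were read in the same libraries. Of 10 macrophage markers only Cd14 and Csf1r passed the filter on low counts. C1qa, C1qb, Itgam and Tyrobp had 0 counts in all 12 libraries, and Ptprc and Adgre1 had at most 3. Of 6 melanocyte markers only Pmel passed, with 6 to 29 counts, while Dct and Trpm1 had 0 counts and Tyr, Mlana and Tyrp1 at most 2. Of 6 osteoclast markers only Acp5 and Mmp9 passed, and Calcr had 0 counts. Cd14, the coreceptor for lipopolysaccharide, was higher in siKEAP1 than in siCONTROL (log2 fold change 1.04, edgeR adjusted p = 1.56e-05), as were Acp5, the tartrate-resistant acid phosphatase (2.00, adjusted p = 0.00108), and the matrix metalloprotease Mmp9 (1.75, adjusted p = 3.67e-06). Csf1r, the receptor for macrophage colony-stimulating factor, had 4 to 19 counts and differed by -0.48 (adjusted p = 0.499). Cd14 and Mmp9 were lower in siKEAP1/siCCNF than in siKEAP1 (-0.59 and -1.18, edgeR adjusted p = 9.49e-04 and 4.89e-05), as was the melanosome gene Pmel (-0.93, adjusted p = 0.0398). The summed level of the macrophage markers, nearly all of it Cd14, was 10.3 to 13.6 CPM in siCONTROL, 22.5 to 23.7 in siKEAP1, 10.9 to 14 in siCCNF and 14.4 to 16.9 in siKEAP1/siCCNF. That of the osteoclast markers was 2.65 to 3.15, 8.27 to 10.7, 3.50 to 4.39 and 3.94 to 4.88 CPM in the same order, and that of the melanocyte markers 0.269 to 0.597, 0.790 to 1.18, 0.739 to 0.778 and 0.351 to 0.675 CPM.

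The 3 MiT/TFE transcripts all rose in siKEAP1 cells and were all lower when CCNF was depleted as well. Mitf, the melanocyte and osteoclast member (ENSMUSG00000035158, GRCm38 chr6:97807052-98021349), stood at 7.93, 6.40 and 7.66 CPM in siCONTROL, 23.9, 25.3 and 26.5 in siKEAP1, 5.07, 6.34 and 6.41 in siCCNF, and 10.04, 10.1 and 7.25 in siKEAP1/siCCNF. All siKEAP1 libraries lay far above the other 9. The rise in siKEAP1 was 3.43-fold (log2 fold change 1.78, SE 0.14, edgeR adjusted p = 5.46e-07), and the level in siKEAP1/siCCNF was 2.75-fold below that in siKEAP1 (-1.46, SE 0.14, adjusted p = 1.69e-06).

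Tfeb (ENSMUSG00000023990, GRCm38 chr17:47737030-47792419) stood at 17.3, 17.5 and 14.5 CPM in siCONTROL, 24.2, 22.5 and 21.1 in siKEAP1, 9.21, 8.01 and 8.94 in siCCNF, and 8.89, 8.32 and 9.09 in siKEAP1/siCCNF. The siKEAP1 libraries were the highest, and both groups that received siCCNF were the lowest and overlapped each other. Tfeb rose 1.38-fold in siKEAP1 (log2 fold change 0.46, SE 0.10, edgeR adjusted p = 0.00209) and was 2.58-fold lower in siKEAP1/siCCNF than in siKEAP1 (-1.37, adjusted p = 1.87e-07).

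Tfe3 (ENSMUSG00000000134, GRCm38 chrX:7762560-7775202) was the most abundant of the 3 per length, with 9.01 ± 0.072 FPKM in siCONTROL against 2.88 ± 0.293 for Tfeb and 1.17 ± 0.129 for Mitf. Its levels were 84.7, 83.8 and 83.7 CPM in siCONTROL, 132.7, 132.3 and 133.6 in siKEAP1, 89.9, 78.2 and 78.9 in siCCNF, and 99.1, 96.8 and 104.0 in siKEAP1/siCCNF. The siKEAP1 libraries stood highest, the double depletion came next, and siCCNF overlapped siCONTROL. The rise in siKEAP1 was 1.58-fold (log2 fold change 0.66, edgeR adjusted p = 2.88e-06), and the double depletion was lower than siKEAP1 (-0.41, adjusted p = 1.27e-04).

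Against siCONTROL, siCCNF differed by log2 -0.91 for Tfeb, -0.31 for Mitf and -0.03 for Tfe3, as a description. siKEAP1/siCCNF was higher than siCCNF for Tfe3 (0.28, edgeR adjusted p = 0.0221) and for Mitf (0.63, adjusted p = 0.0227), whereas Tfeb differed by 0.00 with an adjusted p of 0.993. Those 2 calls were not robust to single libraries. That of Tfe3 was lost without siCCNF replicate 2 or 3 or any one of the siKEAP1/siCCNF libraries (0.23 to 0.29), and that of Mitf without any siCCNF library or siKEAP1/siCCNF replicate 1 or 2 (0.52 to 0.68).

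**Figure D2:**
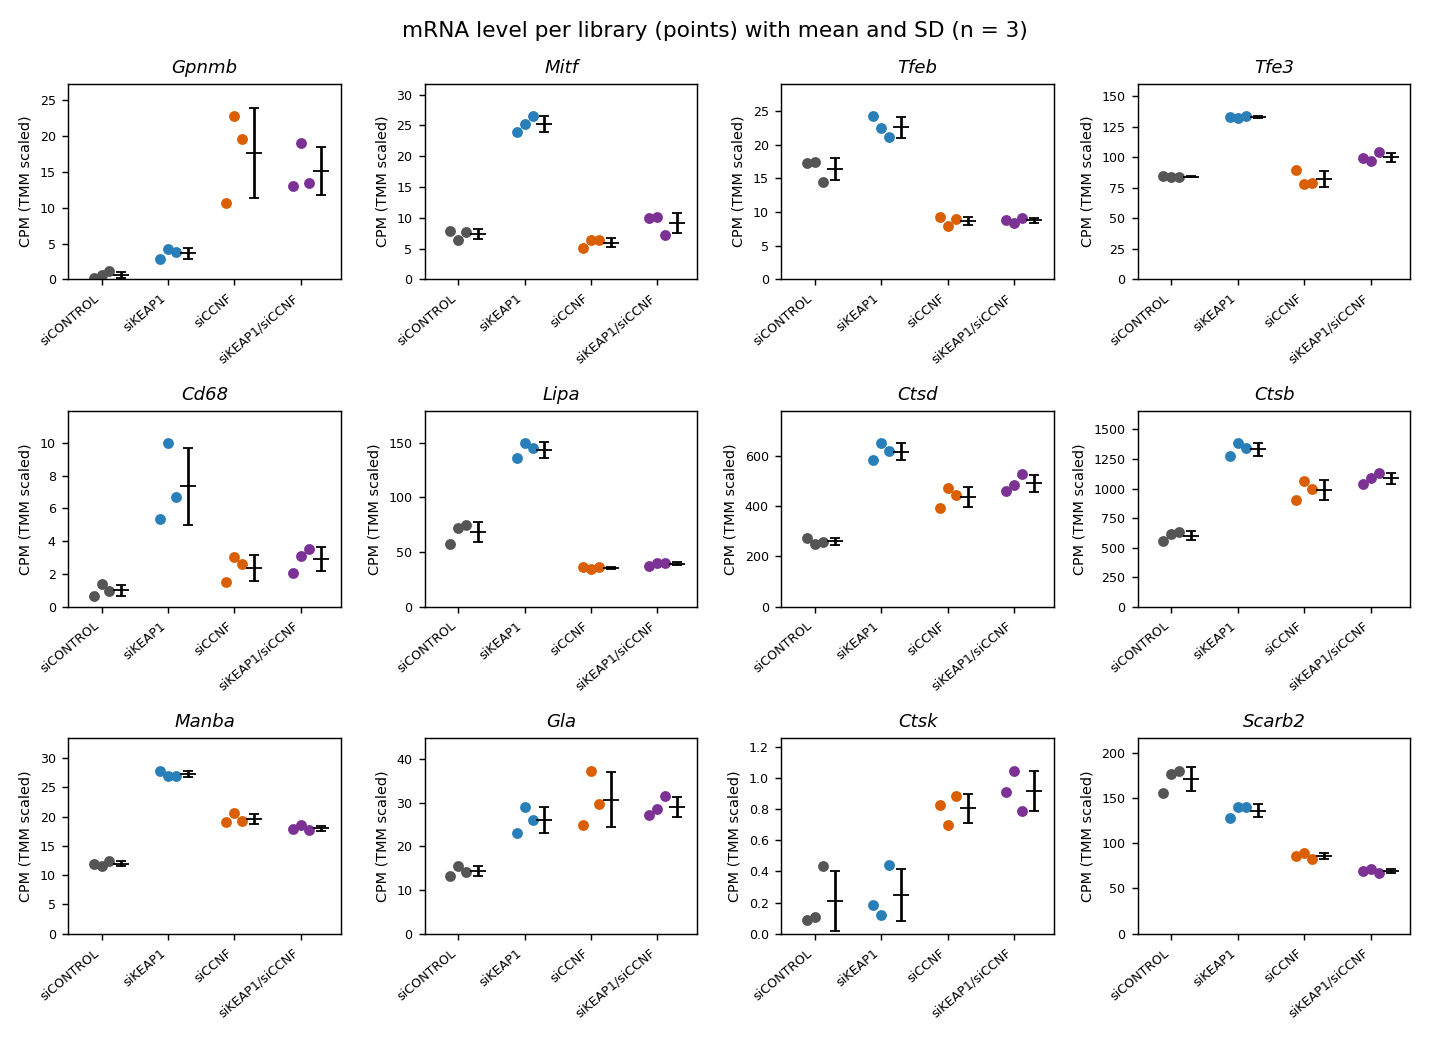
Points give the TMM-scaled CPM of each library for 12 genes in the 4 siRNA groups, and the black marks beside them the mean and SD (n = 3). Mitf, Cd68, Lipa, Ctsd, Ctsb and Manba peak in siKEAP1, Tfeb, Lipa and Scarb2 are lowest in the 2 groups with siCCNF, and Gpnmb and Ctsk are highest where siCCNF was given.

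In KEAP1-depleted cells more of these transcripts rose than fell. This comparison shares the siCONTROL libraries with the one that chose the genes, so it is not independent of that choice. Of the 45 genes, 27 were higher in siKEAP1 than in siCONTROL and 3 were lower, against 20.4% and 20.2% of all genes tested. With a difference over 2-fold required as well, 6 were higher and none was lower, against 7.59% and 3.88% of all genes. The median log2 fold change of the 45 was 0.30. Cd68, the macrosialin of late endosomes, rose most, followed by Mitf, the aspartic protease Ctsd, the beta-mannosidase Manba, the cysteine protease Ctsb and the acid lipase Lipa. The 3 genes that fell were Cd63 (log2 fold change -0.37), Scarb2 (-0.33) and the beta-galactosidase Glb1 (-0.27). The call of Cd63 was lost without siKEAP1 replicate 1 or 3 (-0.37 and -0.36), and the value was -0.21 without siCONTROL replicate 1, still within the threshold. Without siCONTROL replicate 1 and siKEAP1/siCCNF replicate 3, 29 of the 45 were higher and 3 lower.

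Depletion of CCNF in control cells is the comparison that chose the genes, so its counts are a description, from which nothing is read. By the same edgeR criterion 28 of the 45 genes were higher in siCCNF than in siCONTROL and 8 were lower, beside 22.5% and 25.5% of all genes, and 28 and 9 without the 2 libraries named above. Over 2-fold, 7 were higher and none was lower, beside 4.61% and 6.76%. Without Ctsk and Ctss, 26 of 43 were higher and 8 lower, and 5 were higher over 2-fold. The median log2 difference of the 45 was 0.55. The higher genes included 11 of 12 glycosidases and 6 of the 8 proteases other than Ctsk and Ctss, among them Hexa, the alpha chain of beta-hexosaminidase (1.24), Galc, the galactosylceramidase (1.10), and the carboxypeptidase Ctsa (1.11). The 8 lower genes were Scarb2, Lipa, Tfeb, Ctsh, Mcoln1, Npc2, Lamp2 and Smpd1, from -0.99 to -0.20.

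Depletion of CCNF in KEAP1-depleted cells, compared as siKEAP1/siCCNF with siKEAP1, uses none of the libraries that chose the genes. There 17 of the 45 genes were higher and 17 lower, against 24.1% and 26.9% of all genes, and over 2-fold 2 were higher and 4 lower, against 5.32% and 9.17%. The median log2 fold change was 0.07. The 2 higher genes over 2-fold were Ctsk and Ctss, and among the 43 genes that passed the filter without the groups given siCCNF 15 were higher and 17 lower, with none higher over 2-fold. These were led by Galc and Glb1, and the lower ones by Lipa, Mitf, Tfeb and Cd68. Without siCONTROL replicate 1 and siKEAP1/siCCNF replicate 3 the counts were 16 higher and 18 lower.

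Because siCCNF against siCONTROL chose the genes, the classes that follow are a description, and nothing is read from their counts. Set side by side, and without Ctsk and Ctss, 15 of the 43 genes were higher after CCNF depletion both with KEAP1 present and with KEAP1 depleted, and 8 were lower in both, beside 13.9% and 16.5% of all genes. The 8 were the same Scarb2, Lipa, Tfeb, Ctsh, Mcoln1, Npc2, Lamp2 and Smpd1 named above. A further 5 were higher in control cells but lower in KEAP1-depleted cells, namely Ctsb, Ctsd, Manba, Psap and Cd68, beside 1.29% of all genes. All 5 had also risen in siKEAP1, a condition that this share of all genes does not include. The siKEAP1 libraries enter that rise and the comparison in KEAP1-depleted cells with opposite sign, which favours finding both. The remaining genes comprised 6 that were higher in control cells only, 4 that were lower in KEAP1-depleted cells only and 5 called in neither, beside 7.26%, 9.03% and 33.8% of all genes. Across the 43 genes the differences in the 2 backgrounds, which share no library, gave Pearson r = 0.685 and Spearman rho = 0.666, and across all 15122 genes r = 0.569 and rho = 0.611, as a description over genes that are not independent.

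**Figure D3:**
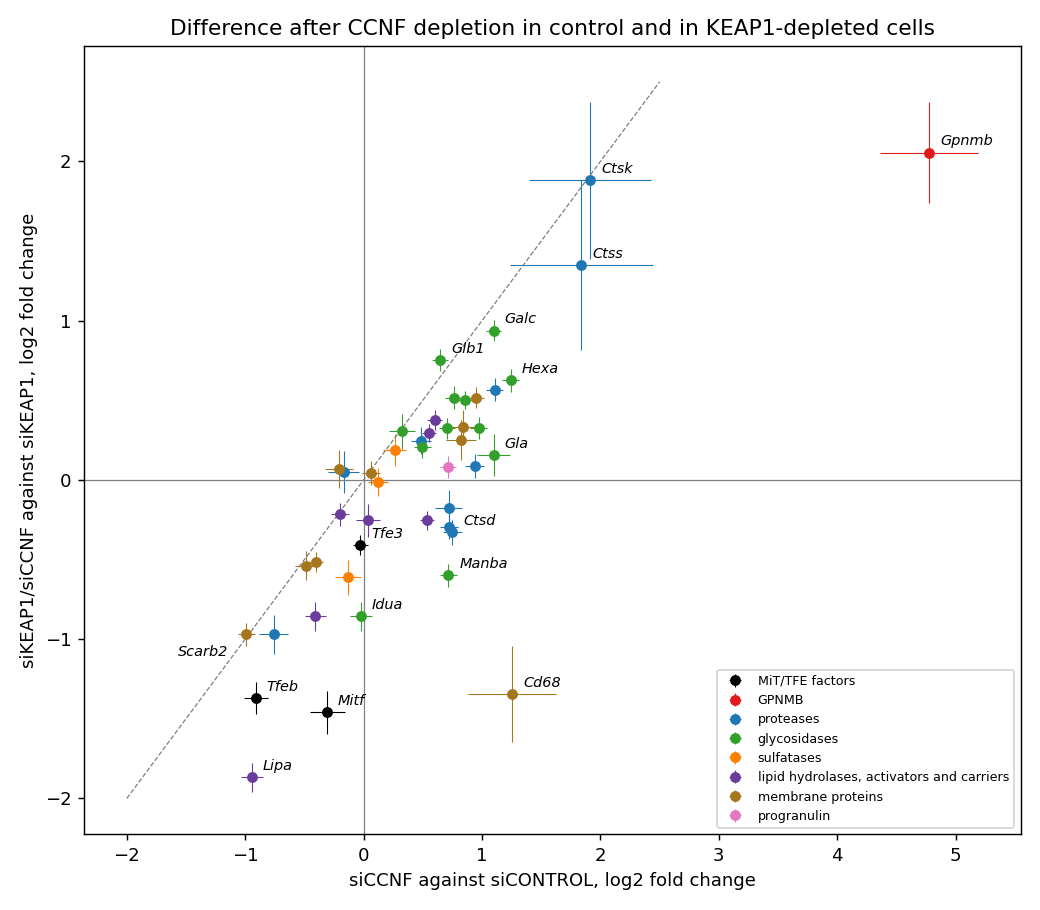
Each point is one of the 46 genes, coloured by role; the horizontal axis gives the log2 fold change of siCCNF against siCONTROL, the vertical axis that of siKEAP1/siCCNF against siKEAP1, bars are standard errors and the dashed line marks equal differences. Most points lie below the line, Gpnmb stands alone at 4.78 and 2.06, and Cd68 and Manba lie to the lower right, positive on the horizontal axis and negative on the vertical one.

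The double depletion was also set against each of the other groups. The siCONTROL and siCCNF libraries entered the comparison that chose the genes, so the counts below are not independent of that choice. Against siCONTROL, 26 of the 45 genes were higher and 10 lower (20.6% and 23.6% of all genes), and over 2-fold 4 were higher and 1 was lower (4.73% and 5.54%). Without Ctsk and Ctss, 24 were higher and 10 lower, and over 2-fold 2 were higher. Without siCONTROL replicate 1 and siKEAP1/siCCNF replicate 3, 26 were higher and 12 lower. Against siCCNF, 2 were higher and 5 lower (3.00% and 2.19% of all genes), with none over 2-fold in either direction (0.496% and 0.231%). The 5 were Idua, Hexa, Naglu, Scarb2 and Grn, from -0.39 to -0.27. Leaving out any one of the siCCNF or siKEAP1/siCCNF libraries left 0 or 1 higher and between 0 and 3 lower, and leaving out siCONTROL replicate 1 and siKEAP1/siCCNF replicate 3 together gave 3 higher and 15 lower.

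Whether the effect of KEAP1 depletion depended on CCNF was read as an interaction, the log2 effect of siKEAP1 in the presence of siCCNF minus its effect in the absence. The same number is the siCCNF effect in KEAP1-depleted cells minus that in control cells, so it contains, with its sign turned, the comparison that chose the genes, and a choice of genes that were high there favours negative values. The interaction is therefore a description with no p-value for these genes, and nothing is read from its counts. Gpnmb had a value of -2.72. By the edgeR criterion 25 of the other 45 genes were negative and none positive, beside 10.5% and 10.6% of all genes. The median was -0.38. Most negative was Cd68 (-2.60, SE 0.47), followed by Manba (-1.31), Mitf (-1.15), Ctsd (-1.08) and Ctsb (-1.02). Keap1 mRNA itself was reduced less in the double depletion (interaction 0.98, edgeR adjusted p = 6.99e-05), and its part in these values was not tested. With any one library left out, between 19 and 24 genes were negative and none positive, and without siCONTROL replicate 1 and siKEAP1/siCCNF replicate 3 together 28 were negative.

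**Figure D4:**
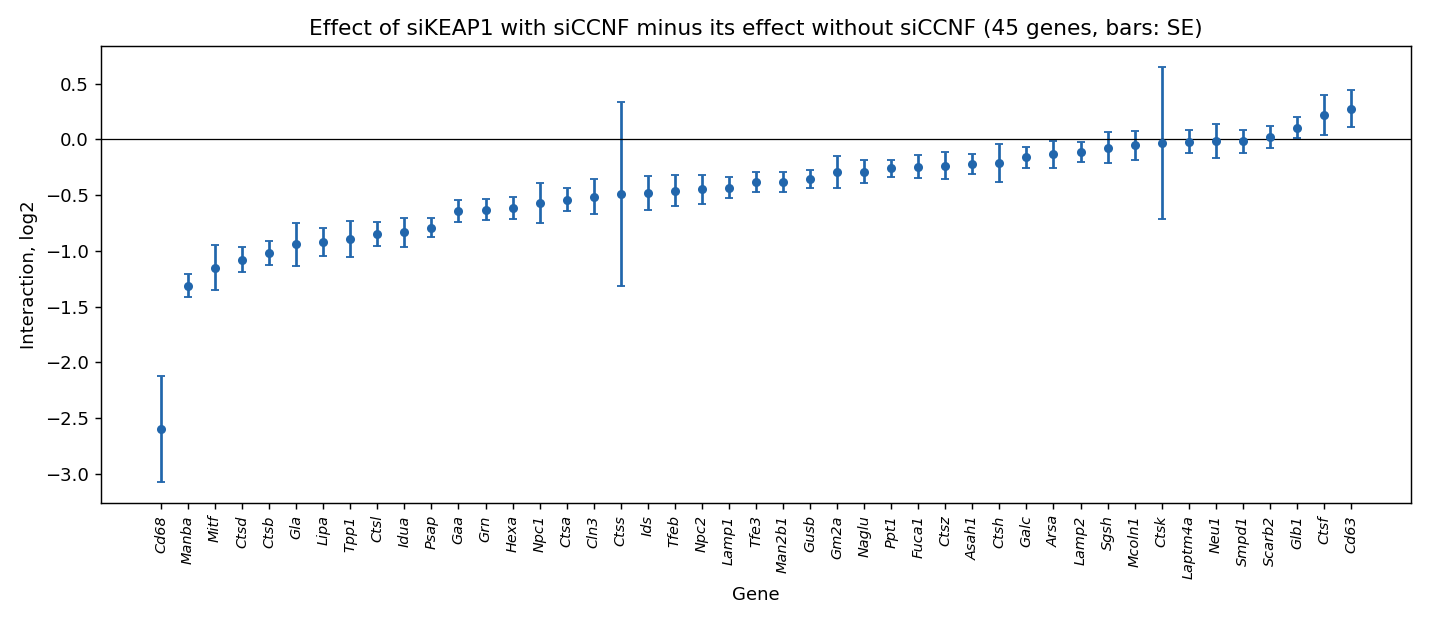
The log2 interaction of siKEAP1 and siCCNF is plotted for the 45 genes other than Gpnmb, ordered by value, with standard errors as bars. Values run from Cd68 at -2.60 to Cd63 at 0.28, most of them below 0, in a difference that contains the comparison that chose the genes.

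The counts by role that follow stand beside the shares of all genes, 20.4% higher and 20.2% lower in siKEAP1 against siCONTROL, and 24.1% and 26.9% in siKEAP1/siCCNF against siKEAP1, and nothing is read from so few genes. Among the 8 proteases other than Ctsk and Ctss, 5 rose in siKEAP1 and none fell, and in siKEAP1/siCCNF against siKEAP1, 2 were higher and 3 lower. Ctsd, the aspartic cathepsin, stood at 274.1, 249.1 and 256.6 CPM in siCONTROL, 582.0, 649.6 and 619.2 in siKEAP1, 394.4, 473.9 and 443.4 in siCCNF, and 459.5, 486.1 and 527.6 in siKEAP1/siCCNF. Every siKEAP1 library was above every library of the 2 groups with siCCNF, which overlapped each other and lay above siCONTROL. The rise in siKEAP1 was 2.37-fold (log2 fold change 1.25, SE 0.08, edgeR adjusted p = 9.02e-08), and siKEAP1/siCCNF was below siKEAP1 by 1.26-fold (-0.33, adjusted p = 0.00379).

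Ctsb, a cysteine cathepsin, followed the same order, at 554.9, 612.0 and 627.9 CPM in siCONTROL, 1272, 1382 and 1345 in siKEAP1, 899.6, 1064 and 996.5 in siCCNF, and 1034, 1093 and 1132 in siKEAP1/siCCNF. Only siCCNF and siKEAP1/siCCNF overlapped. Ctsb was 2.23-fold higher in siKEAP1 than in siCONTROL (log2 fold change 1.16, edgeR adjusted p = 9.75e-08) and lower in siKEAP1/siCCNF than in siKEAP1 (-0.30, adjusted p = 0.00508).

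Ctsk, the collagen-degrading cathepsin of osteoclasts, had a different order and few reads. Its counts were 2, 2 and 9 in siCONTROL, 4, 3 and 10 in siKEAP1, 29, 18 and 33 in siCCNF, and 23, 34 and 18 in siKEAP1/siCCNF. Both groups with siCCNF lay above both groups without it. Since only those 2 groups carried it through the filter, its differences are a description. They were log2 1.88 (SE 0.49) for siKEAP1/siCCNF against siKEAP1, 2.10 against siCONTROL and 0.22 for siKEAP1 against siCONTROL. Without siCONTROL replicate 3, which held 9 of the 13 control counts, the last 2 were 3.16 and 1.28, and without siKEAP1 replicate 3 the first was 2.57 and the last -0.47.

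Ctss, a cathepsin known from antigen-presenting cells, had 3, 4 and 6 counts in siCONTROL, 5, 13 and 8 in siKEAP1, 40, 12 and 25 in siCCNF, and 10, 29 and 37 in siKEAP1/siCCNF. The last group overlapped siKEAP1 in CPM. Ctss also passed the filter only through the groups with siCCNF, and its differences are a description. That from siKEAP1 was log2 1.35 (SE 0.53), and 0.81 without siKEAP1/siCCNF replicate 3. That of siKEAP1/siCCNF from siCONTROL was 2.16, and 1.35 without siCONTROL replicate 1 and siKEAP1/siCCNF replicate 3.

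The 12 glycosidases remove sugars from glycoproteins, glycolipids and glycosaminoglycans. In siKEAP1, 7 rose and 1 fell, and in siKEAP1/siCCNF against siKEAP1, 9 were higher and 2 lower. Manba stood at 11.8, 11.6 and 12.4 CPM in siCONTROL, 27.9, 27.0 and 27.0 in siKEAP1, 19.1, 20.6 and 19.2 in siCCNF, and 17.9, 18.5 and 17.7 in siKEAP1/siCCNF. No group overlapped another. The rise in siKEAP1 was 2.29-fold (log2 fold change 1.19, SE 0.07, edgeR adjusted p = 5.70e-08), and siKEAP1/siCCNF was 1.51-fold below siKEAP1 (-0.60, adjusted p = 1.38e-05).

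Gla, the alpha-galactosidase A deficient in Fabry disease, stood at 13.2, 15.5 and 14.3 CPM in siCONTROL, 23.0, 29.0 and 26.1 in siKEAP1, 24.9, 37.4 and 29.7 in siCCNF, and 27.1, 28.6 and 31.6 in siKEAP1/siCCNF. The 3 depletions overlapped one another and all lay above siCONTROL. Gla was 1.82-fold higher in siKEAP1 (log2 fold change 0.87, edgeR adjusted p = 2.66e-04) and 2.03-fold higher in siKEAP1/siCCNF (1.02, adjusted p = 6.01e-05) than in siCONTROL.

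Galc responded where CCNF was depleted. Its mean was 35.04 ± 1.04 CPM in siCONTROL, 34.8 ± 0.385 in siKEAP1, 75.02 ± 5.39 in siCCNF and 66.5 ± 0.981 in siKEAP1/siCCNF. The difference between siKEAP1/siCCNF and siKEAP1 was 1.91-fold (log2 fold change 0.94, SE 0.07, edgeR adjusted p = 1.15e-07), and that between siKEAP1 and siCONTROL was -0.01 (adjusted p = 0.912).

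Of the 3 sulfatases, Ids, the iduronate sulfatase, was the only one called in the tested comparisons, and it rose in siKEAP1 and was lower in siKEAP1/siCCNF than in siKEAP1. Its mean was 75.1 ± 7.97 CPM in siCONTROL, 95.7 ± 1.28 in siKEAP1, 68.6 ± 0.543 in siCCNF and 62.6 ± 10.9 in siKEAP1/siCCNF. The rise (log2 fold change 0.35, edgeR adjusted p = 0.0209) was lost without siCONTROL replicate 1 (0.25, adjusted p = 0.0779) and also without any one siKEAP1 library (0.33 to 0.35). The second difference was -0.61 (adjusted p = 4.20e-04).

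Of the 7 lipid hydrolases, activators and carriers, 5 rose in siKEAP1 and none fell, whereas in siKEAP1/siCCNF against siKEAP1 2 were higher and 4 lower. Lipa, which hydrolyses cholesteryl esters and triglycerides, stood at 57.4, 72.2 and 74.8 CPM in siCONTROL, 135.6, 149.3 and 144.9 in siKEAP1, 35.9, 34.3 and 36.0 in siCCNF, and 37.4, 40.1 and 40.2 in siKEAP1/siCCNF. All siKEAP1 libraries were above, and all libraries with siCCNF below, every siCONTROL library. Lipa was 2.10-fold higher in siKEAP1 than in siCONTROL (log2 fold change 1.07, SE 0.09, edgeR adjusted p = 7.97e-07). It was 3.65-fold lower in siKEAP1/siCCNF than in siKEAP1 (-1.87, SE 0.09, adjusted p = 6.91e-09) and 1.74-fold lower than in siCONTROL (-0.80, adjusted p = 1.24e-05). Psap, the most abundant transcript, rose from 1409 ± 49.1 CPM in siCONTROL to 2643 ± 64.5 in siKEAP1 (1.88-fold, edgeR adjusted p = 9.74e-08) and stood at 2046 ± 19.0 in siCCNF and 2218 ± 126 in siKEAP1/siCCNF.

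Of the 9 membrane proteins, 5 rose and 2 fell in siKEAP1, the latter near the share of all genes. In siKEAP1/siCCNF against siKEAP1, 2 were higher and 4 lower. Cd68 stood at 0.672, 1.36 and 0.963 CPM in siCONTROL (15, 25 and 20 counts), 5.34, 9.97 and 6.71 in siKEAP1, 1.51, 3.03 and 2.58 in siCCNF, and 2.06, 3.11 and 3.51 in siKEAP1/siCCNF. All siKEAP1 libraries lay above all others, siCCNF and siKEAP1/siCCNF overlapped, and siCONTROL was lowest. Cd68 was 7.45-fold higher in siKEAP1 than in siCONTROL (log2 fold change 2.90, SE 0.35, edgeR adjusted p = 2.34e-05) and 2.54-fold lower in siKEAP1/siCCNF than in siKEAP1 (-1.34, SE 0.30, adjusted p = 0.00215). CD68 is widely used to mark macrophages, and the values of the other macrophage markers are those given beside Gpnmb.

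Scarb2 encodes LIMP-2, an abundant glycoprotein of the lysosomal membrane. It stood at 155.5, 176.8 and 180.2 CPM in siCONTROL, 127.9, 140.4 and 139.9 in siKEAP1, 85.8, 89.1 and 82.8 in siCCNF, and 69.7, 71.9 and 66.7 in siKEAP1/siCCNF. No group overlapped another. Scarb2 was lower in siKEAP1 than in siCONTROL (log2 fold change -0.33, edgeR adjusted p = 0.00207), lower in siKEAP1/siCCNF than in siKEAP1 (-0.97, adjusted p = 1.66e-07) and 2.46-fold lower in siKEAP1/siCCNF than in siCONTROL (-1.30, adjusted p = 3.13e-08). Its difference between siKEAP1/siCCNF and siCCNF (-0.31, adjusted p = 0.0237) was lost without any one library of those 2 groups (-0.34 to -0.28).

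Laptm4a and Cd63 were among the most abundant members. Laptm4a stood at 698 ± 77.1, 672 ± 3.50, 730 ± 30.9 and 693 ± 27.5 CPM in siCONTROL, siKEAP1, siCCNF and siKEAP1/siCCNF, with no call in any comparison. Cd63 stood at 916 ± 187, 706 ± 17.9, 793 ± 36.2 and 741 ± 78.9 CPM in the same order. Its siCONTROL mean contained 1129 CPM in replicate 1 against 836.5 and 781.1 in the others, and the difference of siKEAP1/siCCNF from siCONTROL (-0.31, edgeR adjusted p = 0.0499) was -0.14 without that library (adjusted p = 0.179). The call was lost whenever a library other than siCONTROL replicate 2 or 3 or siKEAP1/siCCNF replicate 3 was left out.

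Grn, which encodes progranulin, a secreted glycoprotein that is processed in lysosomes, had 258 ± 6.28 CPM in siCONTROL, 330 ± 26.8 in siKEAP1, 422 ± 19.7 in siCCNF and 349 ± 15.9 in siKEAP1/siCCNF. It rose in siKEAP1 (log2 fold change 0.36, edgeR adjusted p = 0.00102). Its decrease from siCCNF to siKEAP1/siCCNF (-0.27, adjusted p = 0.0371) was lost without any siCCNF library, siKEAP1/siCCNF replicate 1 or 2, or siKEAP1 replicate 3 (-0.30 to -0.24).

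Promoters were read for letters known to be bound by the MiT/TFE factors or by NRF2, in the RefSeq windows of GRCm38.p6 from 250 bases before to 50 after each start. Of the 46 genes 42 matched; Ctsh, Npc1, Asah1 and Ctsb were without an entry. The E-box CACGTG, which reads the same on both strands, occurred in 13 of 42 genes (31%) against 8.09% of 27025 genes with a window. Its extended form TCACGTGA, the core of the CLEAR element and thus always also an E-box, occurred in 5 of 42 (11.9%, against 1.12%), namely Ctsa, Ctsd, Gla, Cln3 and Mcoln1. The M-box TCATGTG occurred on either strand in 7 (16.7%, against 4.31%). TGACNNNGC, the core of the antioxidant response element bound by NRF2, occurred on either strand in 10 (23.8%, against 14%). These 10 were Mitf, Ctsd, Ctsz, Tpp1, Hexa, Naglu, Galc, Psap, Scarb2 and Cln3. In siKEAP1 against siCONTROL, Scarb2 was lower, Ctsz, Naglu and Galc had no call, and the rest were higher. A match is a description of letters, and no binding was measured.

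The stretches around the E-boxes are shown for those 5 genes and for Lamp1, whose window held the most E-boxes (4). A second E-box of Ctsd, 245 bases before the start, is not shown. The windows that held the E-boxes of Ctsa (chr2:164833523-164833822) and Cln3 (chr7:126583187-126583486) lie wholly inside the genes as annotated in the deposited data. A further window of Cln3, at the 5′ end of the gene, held no E-box. Capitals mark CACGTG, each run reads 5′ to 3′ on the strand of the gene, and the regions in GRCm38.p6 are chr2:164833749-164833795 (plus) for Ctsa, chr7:142387908-142387937 (minus) for Ctsd, chrX:134601182-134601244 (minus) for Gla, chr7:126583340-126583397 (minus) for Cln3, chr8:3500436-3500491 (plus) for Mcoln1 and chr8:13159088-13159163 (plus) for Lamp1.
Ctsa: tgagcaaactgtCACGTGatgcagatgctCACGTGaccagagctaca
Ctsd: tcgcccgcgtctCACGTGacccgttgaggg
Gla: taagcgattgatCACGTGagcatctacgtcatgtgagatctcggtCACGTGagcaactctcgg
Cln3: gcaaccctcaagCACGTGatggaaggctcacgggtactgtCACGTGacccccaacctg
Mcoln1: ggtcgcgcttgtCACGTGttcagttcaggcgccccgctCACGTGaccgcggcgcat
Lamp1: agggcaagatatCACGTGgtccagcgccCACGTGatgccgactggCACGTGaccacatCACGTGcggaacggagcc

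Of the 13 genes with an E-box, 7 were higher and 1 was lower in siKEAP1 than in siCONTROL, and of the other 26 with a window, Ctsk and Ctss left out, 18 were higher and 2 lower. In siKEAP1/siCCNF against siKEAP1, 6 of the 13 were higher and 2 lower, and 8 of the 26 were higher and 13 lower. Both splits stand beside the shares of all genes given above, and no difference between them was tested. Lamp1, a major glycoprotein of the lysosomal membrane, was higher in both comparisons (log2 fold change 0.27 and 0.51, edgeR adjusted p = 0.00485 and 2.61e-05), whereas Mcoln1, the lysosomal calcium channel, had no call in the first (-0.08) and was lower in the second (-0.54).

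Other genes of the pathway were taken from lists of the proton pump, of nutrient signalling to the MiT/TFE factors, of mannose-6-phosphate sorting and of further lysosomal proteins. Their counts stand beside 20.4% higher and 20.2% lower of all genes in siKEAP1 against siCONTROL, and 24.1% and 26.9% in siKEAP1/siCCNF against siKEAP1, and nothing is read from counts near those shares. Of 18 tested V-ATPase subunits, which acidify the lysosome, 9 rose and 2 fell in siKEAP1, and in siKEAP1/siCCNF against siKEAP1 4 were higher and 6 lower, none over 2-fold in either. Of 23 further lysosomal proteins, 9 rose and 1 fell in siKEAP1, and 7 were higher and 7 lower in siKEAP1/siCCNF against siKEAP1. The asparaginyl protease Lgmn was lower in siKEAP1/siCCNF than in siKEAP1 (log2 fold change -1.39, edgeR adjusted p = 3.13e-09). The dipeptidyl peptidase Ctsc, left out of these counts because it passed the filter only through the groups with siCCNF, had 0, 6 and 2 counts in siCONTROL, 1, 5 and 2 in siKEAP1, 45, 41 and 65 in siCCNF, and 28, 28 and 30 in siKEAP1/siCCNF, so that no library with siCCNF overlapped one without it.

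Of 16 tested genes of nutrient signalling, 1 rose and 5 fell in siKEAP1, and 5 were higher and 1 lower in siKEAP1/siCCNF against siKEAP1. Rragd, the Rag GTPase that takes part in presenting the MiT/TFE factors to mTORC1, fell from 8.51 ± 1.54 CPM in siCONTROL to 3.13 ± 0.699 in siKEAP1 (log2 fold change -1.44, SE 0.24, edgeR adjusted p = 2.97e-04) and stood at 9.04 ± 1.85 in siKEAP1/siCCNF (1.53 above siKEAP1, adjusted p = 1.14e-04). It thus differed in the direction opposite to Mitf in both comparisons, and a link between Rragd and Mitf was not tested. Of 9 sorting genes, 3 rose and 1 fell in siKEAP1, and 2 were higher and 3 lower in siKEAP1/siCCNF against siKEAP1. Sort1, the sorting receptor sortilin, rose from 4.70 ± 0.656 to 12.6 ± 1.19 CPM in siKEAP1 (1.43, adjusted p = 6.12e-06) and stood at 4.78 ± 0.399 in siKEAP1/siCCNF (-1.40 from siKEAP1, adjusted p = 4.45e-06).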

How the data were processed

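Poly(A)-selected RNA of 12 C2C12 libraries was analysed. The authors deposited one table of 54532 genes with a count of reads per gene and library and the FPKM values made from these counts, gene length and library total. Per the labels, their processing notes name HISAT2 and GRCm39; gene coordinates in the table match GRCm38 (98.3% of shared identifiers identical to an annotation of that build), which is used here. The counting tool, its handling of strand and of reads shared between related genes are not given in the sources used here. The deposited table also holds the authors' log2 fold changes and p-values, which were not used. Counts were fitted with edgeR 4.0.16 (quasi-likelihood, TMM, filterByExpr, 15122 genes) in R 4.3.3 with 4 group means and all 12 libraries. Adjusted p-values are Benjamini-Hochberg over all genes tested, and a gene was called at an adjusted p under 0.05. limma 3.58.1 and DESeq2 1.42.0 served as alternatives, and the scripts were tested on simulated data. Reads are not independent molecules, and library totals limit precision most for genes under about 10 counts.

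The genes, the role groups and the other lists were chosen with earlier results of these data known. Values are given in every library for Gpnmb, the MiT/TFE factors and each gene called with over 2-fold in one of the 5 comparisons other than siCCNF against siCONTROL, and as group means for the strongest call of each role group and the 3 highest and 3 lowest levels; other genes were named after their values were seen. Replicate libraries were compared, and none was a copy of another. Some genes of the other lysosomal list that this rule names are not reported here.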

Additional observations from a re-analysis of the deposited data

Results flagged for a closer look

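The interaction of siKEAP1 and siCCNF in edgeR picked out 25 of the 45 genes other than Gpnmb, all with negative values. It contains siCCNF against siCONTROL, the comparison that chose the genes, and the choice favours negative values, so these are a description that supports no difference. On the log2 scale the difference was -2.60 for Cd68, -1.31 for Manba, -1.15 for Mitf, -1.08 for Ctsd, -1.02 for Ctsb, -0.94 for Gla, -0.92 for Lipa, -0.89 for Tpp1, -0.85 for Ctsl, -0.83 for Idua and -0.79 for Psap. It was -0.64 for Gaa, -0.63 for Grn, -0.62 for Hexa, -0.57 for Npc1, -0.54 for Ctsa, -0.51 for Cln3, -0.48 for Ids, -0.46 for Tfeb, -0.45 for Npc2, -0.43 for Lamp1, -0.38 for Tfe3, -0.38 for Man2b1, -0.36 for Gusb and -0.26 for Ppt1. A search for single outlying values was not run with 3 libraries a group, and libraries that stood apart are named beside the results they touch.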

How the results depend on the processing

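The balance of siKEAP1/siCCNF against siKEAP1, 17 higher and 17 lower of the 45 with Ctsk and Ctss counted, turned with the setting: 20 and 16 with the length trend removed, 17 and 18 with DESeq2, and 12 and 18 without siKEAP1/siCCNF replicate 3. In the other comparisons the larger count stayed on its side wherever any gene was called. Requiring over 2-fold left 6 higher and 0 lower for siKEAP1, 7 and 0 for siCCNF, 2 and 4 for siKEAP1/siCCNF against siKEAP1, 0 and 0 against siCCNF, 4 and 1 against siCONTROL, and 5 negative interactions. Removing the trend with gene length gave 5 lower for siKEAP1. For siKEAP1/siCCNF against siCCNF, 1 was higher without the filter on low counts, with limma on log2(FPKM + 1) and with the length trend removed; fitting only the groups compared gave 0 higher and 3 lower; and leaving out siCONTROL replicate 1 and siKEAP1/siCCNF replicate 3, an alternative chosen after seeing the data, gave 15 lower. The cause was not tested. With each library left out in turn, higher and lower calls ranged over 23 to 28 and 2 to 4 for siKEAP1, 25 to 28 and 7 to 9 for siCCNF, 12 to 18 and 16 to 18 for siKEAP1/siCCNF against siKEAP1, 0 to 2 and 0 to 5 against siCCNF, 26 to 27 and 8 to 11 against siCONTROL, and 0 to 0 and 19 to 24 for the interaction. Deviations of same-numbered libraries of different groups correlated at r from -0.27 to 0.20, and those of other numbers at -0.28 to 0.39. With 3 libraries a group, these values cannot show whether the numbers pair samples. With a replicate block 27 and 3, 27 and 8, 16 and 18, 2 and 4, 26 and 9, and 0 and 23 were called in the same order. DESeq2's size factors, total library sizes and a minimum of 10 counts in every library kept each count within 1.5 times. Among the interactions, given as a description, that of Tfeb did not meet the criterion in 9 of 20 settings, nor that of Tfe3 with the length trend removed (-0.21), nor that of Ids with total library sizes (-0.46), with the replicate block (-0.48) and without single libraries of every group (-0.52 to -0.39). Low counts limit Gpnmb in siCONTROL, Ctsk, Ctss and Ctsc.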
